A study of Drosophila melanogaster with 12 samples.

Results

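Flies that had fed on erythritol medium for 96 h (T96h, 3 libraries) were compared with flies that had fed on it for 72 h (T72h, 3 libraries), across all genes of the deposited count table. The 6 libraries were chosen by their labels and are 6 of the 12 in the series. Of 17707 genes in the table, 13179 had enough counts to be tested. The study asked how erythritol, a sugar alcohol, affects the survival and egg laying of Drosophila melanogaster. All flies were newly emerged when they were put on a medium of sucrose, corn powder, agar and dry yeast. This medium held 1 mol/L of added erythritol for T96h (day 4) and T72h (day 3), and no erythritol for the control groups CK96h and CK72h (3 libraries each). Each library was made from the polyadenylated RNA of whole bodies of pooled flies, and the study calls the 3 libraries of a group biological replicates. The study reports that erythritol-fed flies died much sooner than controls. By its survival curve, most were dead by the later of the times compared here, and a minority by the earlier. The sources used here give neither the strain nor the sex of the flies, nor whether dead flies were left out of the pools. The part of these deaths in the differences between T96h and T72h was not tested.

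Whole flies hold the RNA of all tissues side by side, and several tissues have genes that hardly any other tissue transcribes. In the ovary, the follicle cells around each egg first secrete the vitelline membrane and then, in the last stages of egg formation, the chorion, the outer eggshell. The fat body secretes yolk proteins in females and, under the Imd and Toll pathways, antimicrobial peptides in both sexes. Photoreceptors, muscle, gut and testis each have marker genes of their own. In pools of whole flies, fewer cells of a type and less RNA per cell cannot be told apart.

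Levels are given as CPM, which are counts scaled to library size and not corrected for gene length, so that levels are compared between libraries and not between genes. Libraries held 19855575 to 20838299 counts in T96h and 20869700 to 22436061 counts in T72h. A principal component analysis of the 6 libraries used the 1000 genes that varied most among them, a choice that favours genes differing between the groups. Over these genes the first component took up 71.2% of the variance and separated T96h from T72h. T72h replicate 3 stood apart from the other T72h libraries on the second component (9.02%), and 16.5% of its counts were mitochondrial, against 8.59% and 11.9% in T72h replicates 1 and 2 and 9.14% to 11.1% in T96h. Replicates were close, with a coefficient of variation of 4.06% at the common dispersion, which is 1 value for all 12 libraries. The T72h replicates were further apart than those of T96h. The chi-square per degree of freedom between pairs of libraries was 12.8, 23.6 and 59.8 in T72h, against 2.9, 5.4 and 5.95 in T96h. If the replicates did not come from separate pools, the p-values measure technical spread alone. Marker genes of eye (ninaE), muscle (Mhc), gut (Jon65Aiii) and testis (betaTub85D) were present in the 6 libraries, as was the yolk protein gene Yp1 of females. The vitelline membrane genes Vm26Aa, Vm26Ab and Vm34Ca of the ovary were near 0.

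Calls followed the study's own criteria, an adjusted p under 0.05 (edgeR's quasi-likelihood test with Benjamini-Hochberg adjustment) together with a log2 fold change of 1.5 or more in either direction. By this rule 86 genes were higher (0.653% of those tested) and 98 were lower (0.744%) in T96h than in T72h. With scaling by median ratios (RLE) in place of TMM, 66 were higher and 117 lower, and with DESeq2, the study's own tool, 83 were higher and 125 lower. On the adjusted p alone, 3460 genes were higher (26.3%) and 3526 lower (26.8%), so that small shifts were common. That split was 4690 higher and 1848 lower with library totals as the only scaling, and 2899 higher and 4806 lower with RLE, and 2676 higher and 4472 lower with DESeq2. The median log2 fold change over all genes tested was -0.01, and 0.115 with library totals, so that list medians within about 0.1 of 0 are not read as a direction. Counts of list members on the adjusted p alone are to be read beside the 26.3% and 26.8% of all genes.

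In control flies over the same day, 205 genes were called higher (1.56%) and 536 lower (4.07%) in CK96h than in CK72h. The change with time differed between the diets (adjusted p of the difference under 0.05) for 4101 genes in the higher direction (31.1%) and 6303 in the lower (47.8%). A single summed level can reach no p below 0.1 in an exact permutation test of 3 libraries against 3, so sums are given without a test. In what follows SE is the standard error of the log2 fold change, control values are means ± SD of 3 libraries, and groups overlap where a library of one lies within the range of the other. Libraries of T96h and T72h did not overlap, all higher or all lower, for 28.6% of genes in each direction.

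**Figure D1:**
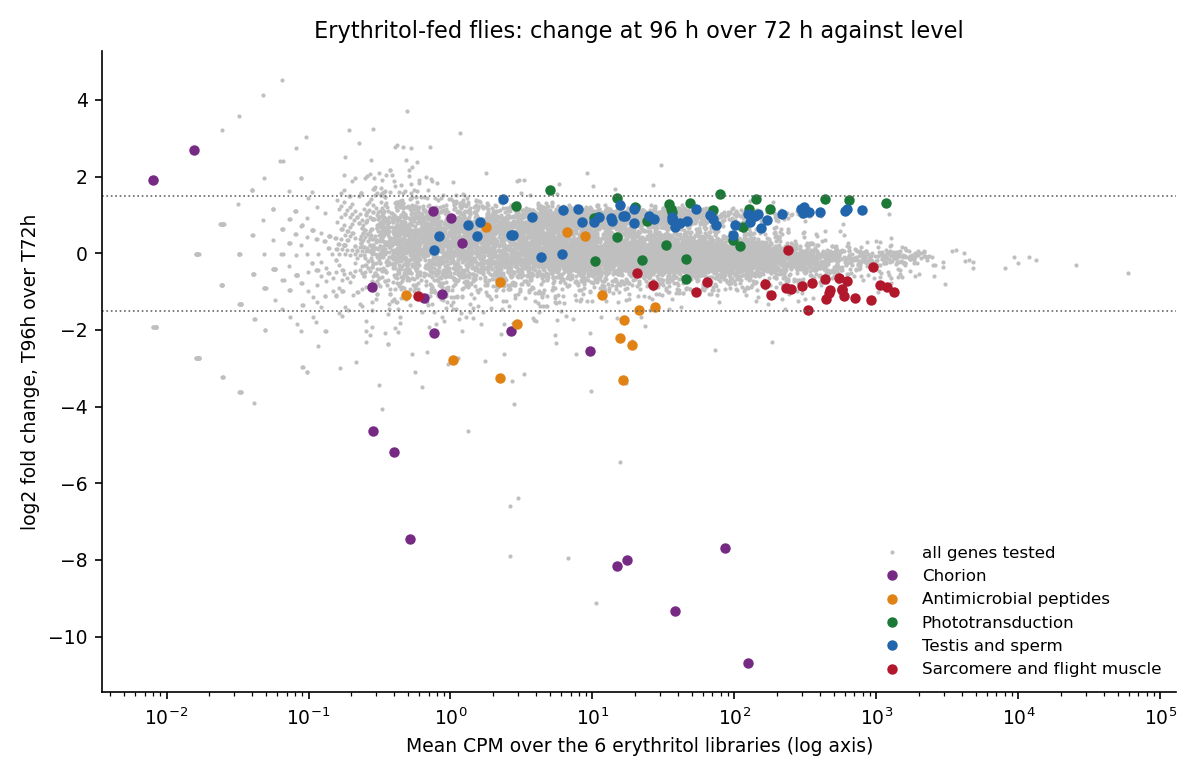
Log2 fold change of T96h over T72h (vertical axis) against mean CPM over the 6 erythritol libraries (horizontal log axis) for the 13179 genes tested, with 5 gene lists in colour and dotted lines at log2 fold changes of 1.5 and -1.5. Chorion genes reach -10.70, and 7 of 15 antimicrobial peptide genes lie below the lower line. The list medians are 1.14 for photoreceptor, 0.905 for testis and -0.924 for muscle genes, with single members away from them.

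The called genes were of unlike kinds in the 2 directions. Of the 86 higher genes, 77 averaged under 4 CPM and 29 were annotated as non-coding RNA genes, whereas 90 of the 98 lower genes coded for protein and 31 averaged at least 4 CPM. Among the 780 non-coding RNA genes tested, 29 were called higher, or 3.72%, and their median log2 fold change was 0.39. In control flies 19 of the 86 higher genes were called lower (22.1% of the 86, and 3.54% of the 536 control falls), and 15 of the 98 lower genes were called higher (15.3% of the 98, and 7.32% of the 205 control rises). Another 12 of the 86 were called higher and 10 of the 98 lower in controls as well. The change differed between the diets, in either direction, for 75 of the 86 and 78 of the 98. Over all genes tested it differed for 31.1% in the higher direction and 47.8% in the lower, so that such a difference was common. Genes with short exons tended upwards and long ones downwards: the median log2 fold change was 0.16 in the fifth of genes with the shortest exon length and -0.11 in the fifth with the longest. The part of transcript length or RNA quality in the results was not tested.

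Chorion genes led the falls, with 6 of the 15 largest among called genes of at least 4 CPM. Of 19 chorion genes tested, 11 were called lower and 0 higher in T96h, and 13 were lower and 2 higher on the adjusted p alone. Their median log2 fold change was -2.07. The summed level of the list was 11, 9.18 and 10.7 CPM in T96h, against 616, 587 and 570.4 CPM in T72h. Every T96h library lay far below every T72h library, and the T72h mean was 57.3 times the T96h mean. Controls moved in the other direction, with 7848 ± 397 CPM in CK96h and 3468 ± 36.6 CPM in CK72h, and 19 of 19 genes were higher in CK96h on the adjusted p.

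Most of the chorion protein genes lie in a pair of clusters that follicle cells amplify during egg formation. The cluster on chromosome 3L (dm6, chr3L:8726791-8732599) holds Cp18, Cp15, Cp19 and Cp16, which encode chorion proteins made late in eggshell formation, and 4 of its 4 tested genes were called lower. Cp19 had 0.0937, 0.101 and 0.241 CPM in T96h, against 258, 247 and 247 CPM in T72h. A gene above 200 CPM in each T72h library was thus down to a few reads in each T96h library (log2 fold change -10.70, SE 0.107, adjusted p = 8.34e-29).

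Cp16 had 0.187, 0.101 and 0.0482 CPM in T96h, against 78.6, 77.2 and 73.5 CPM in T72h (log2 fold change -9.33, SE 0.134, adjusted p = 1.57e-25). Cp18 had 0.796, 0.756 and 0.915 CPM in T96h, against 179, 171 and 163 CPM in T72h (log2 fold change -7.69, SE 0.0978, adjusted p = 1.4e-26). Like Cp19, both were under 1 CPM in every T96h library and far above that in every T72h library. Cp15 had 2.81, 2.57 and 2.94 CPM in T96h, against 17.6, 15.9 and 15.7 CPM in T72h, a fall with the groups well apart but smaller than those of its neighbours (log2 fold change -2.56, SE 0.102, adjusted p = 1.44e-16).

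In the cluster on the X chromosome (dm6, chrX:8470888-8483311), whose genes are transcribed before those of the 3L cluster, 3 of 5 tested genes were called lower. Cp36, a main chorion protein gene, had 0.0937, 0 and 0.193 CPM in T96h, against 32.2, 29.8 and 26.4 CPM in T72h (log2 fold change -8.17, SE 0.202, adjusted p = 2.11e-20). Cp38, its neighbour, had 0.0937, 0.151 and 0.144 CPM in T96h, against 36.5, 35.4 and 32.4 CPM in T72h (log2 fold change -8.01, SE 0.173, adjusted p = 1.21e-21). Both were under 1 CPM in every T96h library, with no overlap. Cp7Fa, whose role is less well known, had 1.12, 1.01 and 1.01 CPM in T96h, against 4.41, 3.75 and 4.67 CPM in T72h (log2 fold change -2.02, SE 0.17, adjusted p = 2.08e-10).

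The other members of the X cluster were already near 1 CPM at 72 h. Cp7Fc had 0.515, 0.303 and 0.385 CPM in T96h, against 1.1, 0.817 and 0.812 CPM in T72h (log2 fold change -1.16, SE 0.272, adjusted p = 0.00135), where controls had 270.0 ± 8.76 CPM in CK96h and 93.4 ± 0.276 CPM in CK72h. Cp7Fb had 1.55, 1.31 and 1.06 CPM in T96h, against 0.901, 0.481 and 0.71 CPM in T72h (log2 fold change 0.91, SE 0.226, adjusted p = 0.0018), where controls had 187 ± 1.67 CPM in CK96h and 63.2 ± 0.277 CPM in CK72h. Cp7Fc was lower and Cp7Fb higher in all T96h libraries, and for both the level at either time was under 2 CPM.

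Set beside controls of the same day, the chorion genes at 72 h stood at unlike shares of the control level. Cp19 averaged 251 CPM in T72h and 539 CPM in CK72h, and Cp16 averaged 76.4 CPM in T72h and 118 CPM in CK72h. Cp18 averaged 171 CPM in T72h and 91.9 CPM in CK72h, and so was above its control. Cp36 averaged 29.5 CPM in T72h and 602 CPM in CK72h, and Cp38 averaged 34.7 CPM in T72h and 734 CPM in CK72h. The genes of the 3L cluster other than Cp15 were thus within about 2 times of the control level at 72 h, and the X cluster genes were far below it.

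The vitelline membrane genes, which follicle cells transcribe before the chorion genes, were all but absent at both times. Vm26Aa had 0, 0.101 and 0 CPM in T96h, against 0.25, 0.288 and 0.355 CPM in T72h, where controls had 830.1 ± 55.7 CPM in CK96h and 627 ± 16.8 CPM in CK72h. Vm26Ab had 0.328, 0.202 and 0.144 CPM in T96h, against 0.1, 0.144 and 0.203 CPM in T72h, where controls had 279.7 ± 8.05 CPM in CK96h and 261 ± 10.8 CPM in CK72h. Vm34Ca had 0, 0.202 and 0 CPM in T96h, against 0.0501, 0.0961 and 0.0507 CPM in T72h, where controls had 791 ± 63.2 CPM in CK96h and 348 ± 5.21 CPM in CK72h. The groups overlap for Vm26Ab and Vm34Ca, whose T72h libraries were already under 1 CPM.

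Of 10 vitelline membrane and related genes tested, 1 was called lower, and the median log2 fold change was -0.06. The call was Vm26Aa, with 2 counts in T96h and 18 in T72h, a ratio of 9.22 (95% counting interval 2.21 to 81.9). The members still transcribed included fs(1)N, with 22.8, 21.3 and 21.4 CPM in T96h, against 19.3, 20.6 and 19 CPM in T72h (log2 fold change 0.16, SE 0.0556, adjusted p = 0.0214), fs(1)M3 (log2 -0.10, adjusted p = 0.263) and clos (log2 -0.27, adjusted p = 0.000259), all of which supply proteins that pattern the embryo from the eggshell.

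**Figure D2:**
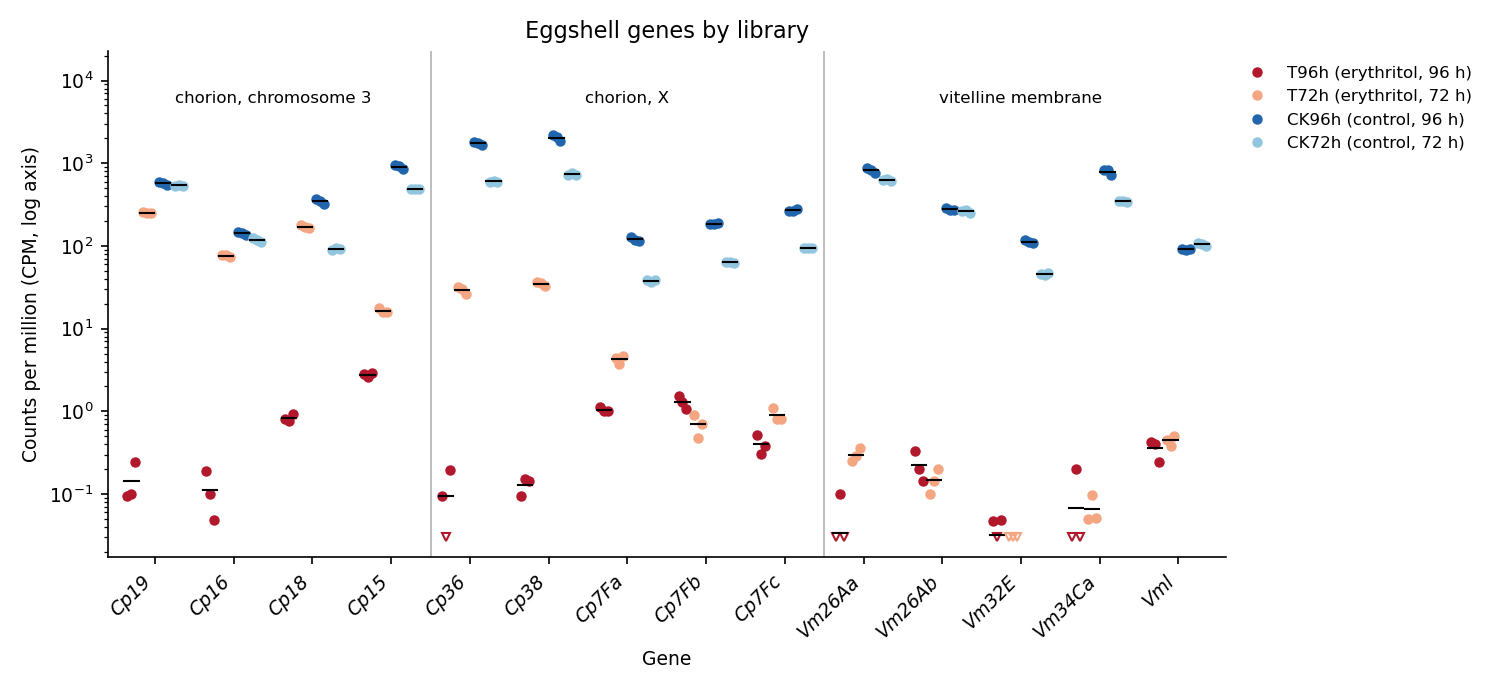
CPM of 9 chorion genes and 5 vitelline membrane genes (log axis) in each of the 3 libraries of T96h, T72h, CK96h and CK72h, with bars at group means and open triangles for libraries at 0. Cp19, Cp16 and Cp18 average 251, 76.4 and 171 CPM in T72h and lie under 1 CPM in T96h, while the vitelline membrane genes Vm26Aa, Vm26Ab, Vm32E and Vm34Ca are under 1 CPM in both.

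Chorion genes outside the clusters were under 2 CPM at both times, and most that passed the test were lower at 96 h. CG4009 had 0, 0 and 0 CPM in T96h, against 1.1, 0.721 and 1.27 CPM in T72h. With no count in T96h it was at least 21.2-fold lower, the floor being 3 counts over the group. CG15571 had 1 count in T96h and 48 in T72h, a ratio of 49.2 (95% counting interval 8.41 to 1982), and CG11381 had 1 and 33, a ratio of 33.8 (95% counting interval 5.66 to 1375).

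CG15570 had 0.187, 0.202 and 0.482 CPM in T96h, against 1.65, 0.865 and 1.22 CPM in T72h (log2 fold change -2.07, SE 0.321, adjusted p = 5.69e-06). dec, whose product is cut into several proteins of the eggshell, had 0.468, 0.807 and 0.433 CPM in T96h, against 1.4, 1.35 and 0.812 CPM in T72h (log2 fold change -1.07, SE 0.263, adjusted p = 0.00134). CG1077 was the exception and was higher, with 1.22, 0.756 and 1.11 CPM in T96h, against 0.701, 0.24 and 0.507 CPM in T72h (log2 fold change 1.10, SE 0.313, adjusted p = 0.0046). Neither CG15570, dec nor CG1077 overlapped between the times, and every control library was above every T96h library for these genes.

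Further genes that behaved like the chorion genes were among the 15 largest falls. Femcoat, an eggshell gene that the list left out, had 0, 0.151 and 0 CPM in T96h, against 12.9, 13.8 and 13.3 CPM in T72h, or 3 counts against 807, a ratio of 275 (95% counting interval 93.9 to 1339). CG13083, with no function given here, had 0.89, 0.807 and 0.385 CPM in T96h, against 31.3, 29.2 and 31.1 CPM in T72h (log2 fold change -5.45, SE 0.118, adjusted p = 1.21e-21). Its neighbour CG13084 had 0, 0.0504 and 0.0482 CPM in T96h, against 22.7, 21 and 19.9 CPM in T72h, or 2 counts against 1284, a ratio of 658 (95% counting interval 182 to 5435). All were above 10 CPM in each T72h library and under 1 CPM in each T96h library.

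Controls had more of all 3 transcripts at 96 h. Femcoat averaged 46.8 ± 3.45 CPM in CK96h and 27.6 ± 0.689 CPM in CK72h (adjusted p of the difference between the diets 2.69e-19). CG13083 averaged 124 ± 3.19 CPM in CK96h and 64.8 ± 1.2 CPM in CK72h (adjusted p of the difference 7.9e-23). CG13084 averaged 103 ± 4.03 CPM in CK96h and 55.8 ± 1.74 CPM in CK72h (adjusted p of the difference 2.34e-22).

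Yolk genes moved much less than chorion genes. Of 5 tested, 0 were called and 4 were lower on the adjusted p alone, with a median log2 fold change of -0.38. Yp1, a yolk protein gene of the female fat body, had 551, 564 and 542 CPM in T96h, against 709, 686 and 620.4 CPM in T72h (log2 fold change -0.28, SE 0.0648, adjusted p = 0.000656). Yp2, its close relative, had 235, 224 and 227 CPM in T96h, against 415, 395 and 336 CPM in T72h (log2 fold change -0.74, SE 0.0774, adjusted p = 1.02e-08). Each T96h library was lower than each T72h library for both, and also for Yp3 (log2 fold change -0.70). yl, the yolk protein receptor of the oocyte, had 176, 170.1 and 162 CPM in T96h, against 227, 223 and 211 CPM in T72h (log2 fold change -0.38, SE 0.0432, adjusted p = 4.4e-08). In controls all 5 were higher at 96 h, with Yp1 at 4748 ± 606 CPM in CK96h and 2105 ± 22.4 CPM in CK72h.

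Genes of the female germline moved little beside the eggshell genes. Of 33 maternal and germline genes, 0 were called, and the median was -0.06. On the adjusted p, 6 were higher and 10 lower, beside 26.3% and 26.8% of all genes. The 10 lower became 6 without T72h replicate 2 and 3 with library totals. osk, which sets up the posterior of the egg, had 128, 128 and 124 CPM in T96h, against 145, 149 and 142 CPM in T72h (log2 fold change -0.21, SE 0.0377, adjusted p = 5.55e-05). grk, a signal from the oocyte to the follicle cells, had 19.5, 19.5 and 21.5 CPM in T96h, against 31.4, 30.4 and 29.2 CPM in T72h (log2 fold change -0.59, SE 0.0711, adjusted p = 1.32e-07). Their falls were small, with no overlap. exu, an RNA-localisation gene that the testis also transcribes, was higher, with 397, 400.0 and 404 CPM in T96h, against 226, 223 and 224 CPM in T72h (log2 fold change 0.84, SE 0.0353, adjusted p = 4.38e-16).

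Testis transcripts rose over the same day. Of 52 testis and sperm genes, 46 were higher on the adjusted p and 0 lower, with 0 called and a median log2 fold change of 0.91. Their summed level was 7623, 7637 and 7593 CPM in T96h, against 3695, 3661 and 3834 CPM in T72h. Each T96h library held about 2 times the T72h level. In controls the same genes had a median of -1.26, with 2998 ± 20.5 CPM in CK96h and 7378 ± 35.8 CPM in CK72h. The change differed between the diets for 51 of the 52 genes in the higher direction.

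The testis genes rose by similar amounts. S-Lap1, a leucyl aminopeptidase of the sperm tail, had 1096, 1099.8 and 1072 CPM in T96h, against 506, 484 and 514 CPM in T72h (log2 fold change 1.12, SE 0.039, adjusted p = 1.2e-17). S-Lap7, a relative, had 817, 826 and 797 CPM in T96h, against 378, 378 and 378 CPM in T72h (log2 fold change 1.11, SE 0.0375, adjusted p = 7.05e-18). loopin-1, of the same family, had 868, 859 and 848 CPM in T96h, against 390.0, 384 and 384 CPM in T72h (log2 fold change 1.15, SE 0.0366, adjusted p = 2.65e-18). The T96h libraries were all above the T72h libraries, though reads may be shared between these related copies. betaTub85D, the beta tubulin of male germ cells, had 414, 419 and 399 CPM in T96h, against 203, 197 and 195 CPM in T72h (log2 fold change 1.05, SE 0.0375, adjusted p = 1.89e-17). FBgn0038762, with no name in the annotation used here, was among the 8 largest rises in CPM, with 1681, 1666 and 1611 CPM in T96h, against 837, 820.4 and 785 CPM in T72h (log2 fold change 1.02, SE 0.0401, adjusted p = 1.13e-16).

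Genes of the Y chromosome and the roX RNAs went in the same direction. Of 12 Y chromosome fertility genes, 8 were higher and 0 lower on the adjusted p, with a median log2 fold change of 0.69. kl-5, a dynein heavy chain of the sperm tail, had 14.6, 11 and 11.1 CPM in T96h, against 7.96, 8.12 and 8.32 CPM in T72h (log2 fold change 0.59, SE 0.103, adjusted p = 2.87e-05). lncRNA:roX1, a non-coding RNA of the dosage compensation complex that males transcribe in most tissues, had 76.5, 77.6 and 81.1 CPM in T96h, against 32.3, 33 and 40.2 CPM in T72h (log2 fold change 1.16, SE 0.0597, adjusted p = 1.78e-14). lncRNA:roX2, its partner, had 3.33, 2.52 and 2.36 CPM in T96h, against 1.3, 1.39 and 1.78 CPM in T72h (log2 fold change 0.88, SE 0.206, adjusted p = 0.000851). All 3 were higher in every T96h library than in any T72h library.

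The remaining sex markers moved less. The other 10 of 12 genes of the dosage compensation and sex determination list had log2 fold changes from -0.75 to 0.21. Sxl, the switch gene of female development, had 156, 159 and 164 CPM in T96h, against 168, 183 and 218 CPM in T72h (log2 fold change -0.25, SE 0.0644, adjusted p = 0.0021). msl-2, whose protein males need for dosage compensation, had 16.4, 16.1 and 17.9 CPM in T96h, against 14.9, 15.7 and 13.1 CPM in T72h (log2 fold change 0.21, SE 0.0829, adjusted p = 0.0389). The groups do not overlap for either, and the shifts go in opposite directions. dsx, which acts in both sexes, had 25.3, 25.4 and 26.6 CPM in T96h, against 39.7, 41.2 and 49.4 CPM in T72h (log2 fold change -0.75, SE 0.0677, adjusted p = 7.25e-10).

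Genes of the other male organs were mixed. Of 8 genes of the ejaculatory bulb and duct, 2 were higher and 2 lower on the adjusted p, and the summed level was 652 ± 9.98 CPM in T96h and 719 ± 38.1 CPM in T72h (SD, n = 3 each), all T96h libraries being lower. In the accessory gland, 12 of 33 were higher and 4 lower on the adjusted p, with a median of 0.13. That median was 0.05 with RLE, 0.05 with DESeq2, 0.07 without T72h replicate 1 and 0.08 without T96h replicate 3. It was 0.25 with library totals, and it is not read as a direction. The 4 lower became 1 without T96h replicate 2, 1 without T72h replicate 3 and 7 with RLE or DESeq2. lectin-46Cb, a seminal fluid lectin, had 61.5, 63.9 and 59.6 CPM in T96h, against 31.2, 29.3 and 28 CPM in T72h (log2 fold change 1.07, SE 0.0501, adjusted p = 3.25e-15). Acp26Aa, the seminal peptide that stimulates ovulation, had 1.31, 0.958 and 1.06 CPM in T96h, against 1.95, 1.73 and 1.78 CPM in T72h (log2 fold change -0.70, SE 0.194, adjusted p = 0.00349). The first was higher and the second lower in all T96h libraries. The share of males in each pool was not measured, and its part in the results for ovary, yolk and testis genes was not tested.

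Antimicrobial peptides, which the fat body secretes in response to bacteria and fungi, were the next list with large falls. Of 15 tested, 7 were called lower and 0 higher, and on the adjusted p alone 12 were lower and 3 higher. Drs was listed but not found by symbol in the table, so that the counts, median and sums leave it out. The median log2 fold change was -1.48. Summed, the list stood at 80.6, 78.8 and 81.6 CPM in T96h, against 225, 231 and 229 CPM in T72h. The T72h mean was 2.84 times the T96h mean, with no overlap. In controls the median was 2.54, with sums of 679 ± 7.44 CPM in CK96h and 148 ± 4.23 CPM in CK72h.

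The largest fall of the list on the log2 scale was that of Dro. Dro, which encodes drosocin, had 3.04, 3.08 and 2.79 CPM in T96h, against 28.4, 29.8 and 30.8 CPM in T72h (log2 fold change -3.32, SE 0.0905, adjusted p = 1.82e-19). AttC, an attacin gene, had 5.81, 6.86 and 5.64 CPM in T96h, against 31.7, 32.2 and 32.3 CPM in T72h (log2 fold change -2.40, SE 0.0808, adjusted p = 6.44e-18). In both the T96h libraries were far below the T72h libraries. DptB, a diptericin gene, had 5.01, 5.75 and 5.92 CPM in T96h, against 26.4, 25.7 and 24.6 CPM in T72h (log2 fold change -2.20, SE 0.0896, adjusted p = 2.13e-16). DptA, its neighbour, had 8.06, 6.15 and 8.96 CPM in T96h, against 23.2, 26.8 and 27.6 CPM in T72h (log2 fold change -1.74, SE 0.104, adjusted p = 2.87e-13).

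These 4 genes were called in opposite directions on the 2 diets. In controls Dro averaged 63.3 ± 2.52 CPM in CK96h and 9.83 ± 0.974 CPM in CK72h. DptB averaged 102 ± 1.82 CPM in CK96h and 3.56 ± 0.833 CPM in CK72h (adjusted p of the difference 7.75e-24), and DptA averaged 96.4 ± 1.65 CPM in CK96h and 3.1 ± 0.852 CPM in CK72h (adjusted p of the difference 4.19e-22). T72h therefore lay above CK72h and T96h below CK96h for these genes.

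Other peptides varied. AttA had 16, 14.8 and 14 CPM in T96h, against 42.4, 38.6 and 38.3 CPM in T72h (log2 fold change -1.41, SE 0.0696, adjusted p = 7.81e-15). AttB, a near-identical copy with which it may share reads, had 11.8, 11.7 and 10.02 CPM in T96h, against 32.6, 32.6 and 28.6 CPM in T72h (log2 fold change -1.48, SE 0.0735, adjusted p = 8.78e-15). Neither reached the fold threshold, though AttB passed it with RLE (-1.56), with DESeq2 (-1.56) and without T72h replicate 3 (-1.58), T96h replicate 1 (-1.52) or T96h replicate 2 (-1.52). Mtk, the antifungal peptide metchnikowin, came next to Dro in size of fall, with 0.328, 0.656 and 0.289 CPM in T96h, against 4.41, 4.04 and 3.75 CPM in T72h (log2 fold change -3.26, SE 0.238, adjusted p = 1.51e-11). CecA2, a cecropin gene, had 0.187, 0.353 and 0.241 CPM in T96h, against 1.15, 1.54 and 2.74 CPM in T72h (log2 fold change -2.78, SE 0.408, adjusted p = 2.61e-06). Def, an insect defensin, had 8.24, 6.2 and 8.09 CPM in T96h, against 14.5, 17.4 and 15.7 CPM in T72h (log2 fold change -1.08, SE 0.0992, adjusted p = 1.11e-09). All 3 were lower in every T96h library.

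The drosomycin-like genes were divided. Drsl3 was called lower, with 1.12, 1.41 and 1.3 CPM in T96h, against 4.06, 5.05 and 4.62 CPM in T72h (log2 fold change -1.84, SE 0.198, adjusted p = 1.85e-08). Drsl4 was higher, with 7.77, 7.46 and 8.53 CPM in T96h, against 4.71, 5.96 and 5.48 CPM in T72h (log2 fold change 0.56, SE 0.103, adjusted p = 6.04e-05). Drsl5 was higher too, with 8.99, 10.6 and 11.2 CPM in T96h, against 7.66, 5.77 and 9.28 CPM in T72h (log2 fold change 0.44, SE 0.119, adjusted p = 0.00297). The groups overlap for Drsl5.

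The Bomanins, short peptides that the Toll pathway induces, shifted less. Of 17 Bomanins and other Toll effectors, 0 were called and 12 were lower on the adjusted p, 7 without T96h replicate 2 and 8 without T72h replicate 3. Their median was -0.44, or -0.24 without T72h replicate 3, and the control median was 1.66. BomS2 had 28.8, 27.5 and 30.9 CPM in T96h, against 47, 48.6 and 55.2 CPM in T72h (log2 fold change -0.79, SE 0.0781, adjusted p = 4.05e-09). BomS3 had 103, 93.3 and 122 CPM in T96h, against 122, 121 and 176 CPM in T72h (log2 fold change -0.40, SE 0.0961, adjusted p = 0.00109). BomS2 separated the groups, whereas BomS3 overlaps. The list sum was 662 CPM in T72h replicate 3, against 458 and 464 CPM in T72h replicates 1 and 2. Peptidoglycan recognition genes, whose products sense bacteria upstream, were mixed, with 4 of 16 higher and 7 lower on the adjusted p.

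**Figure D3:**
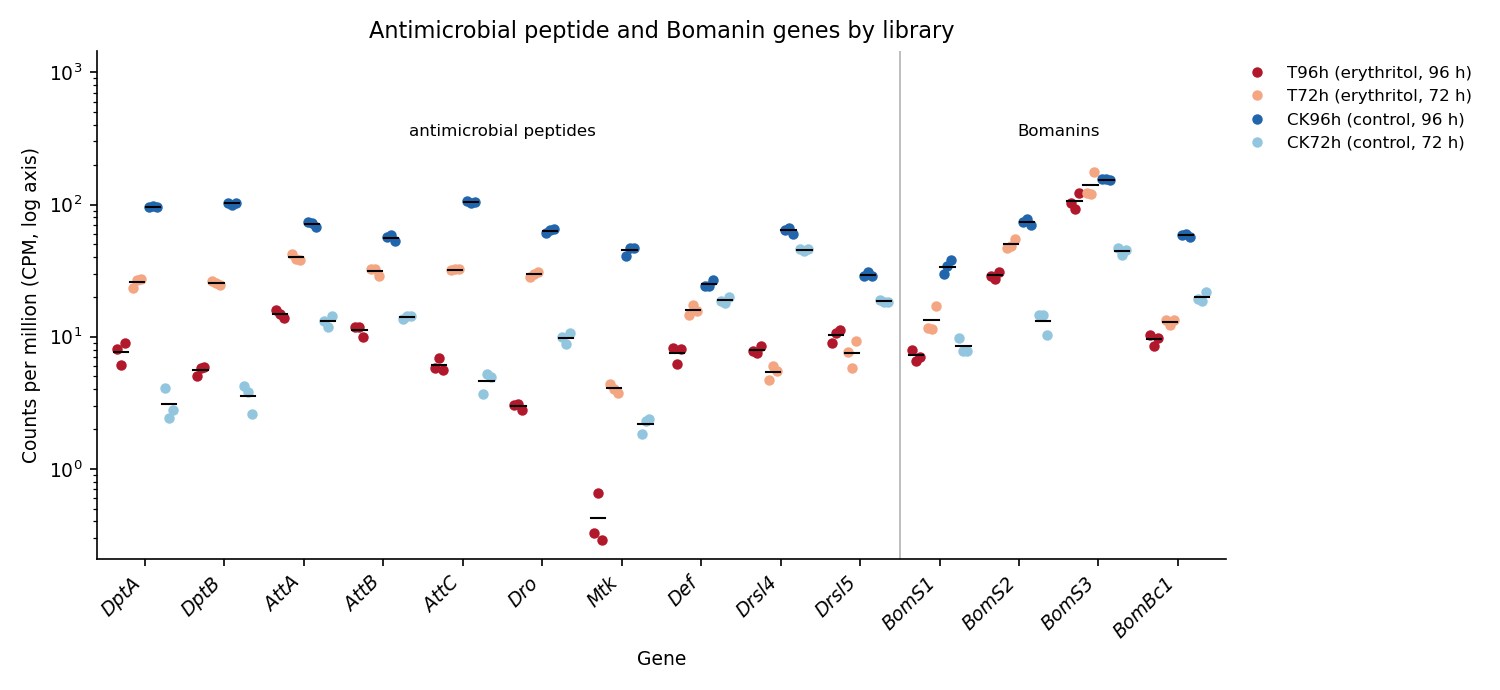
CPM of 10 antimicrobial peptide genes and 4 Bomanin genes (log axis) in each library of T96h, T72h, CK96h and CK72h, with bars at group means. DptA, DptB, AttA, AttB, AttC, Dro and Mtk are lower in T96h than in T72h and higher in CK96h than in CK72h, while Drsl4 and Drsl5 are higher at 96 h on both diets.

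Cuticle genes made up a further share of the called falls. Of 51 structural cuticle genes tested, 7 were called lower and 1 higher, while 4 were higher and 16 lower on the adjusted p. The list median was -0.15, but -0.03 without T72h replicate 1, -0.06 without T72h replicate 2, -0.09 without T96h replicate 1 and -0.50 with the 6 erythritol libraries alone, and it is not read as a direction. Cpr92F, which encodes a chitin-binding cuticle protein, had 1.55, 1.51 and 1.4 CPM in T96h, against 18.2, 17.7 and 17.8 CPM in T72h (log2 fold change -3.59, SE 0.157, adjusted p = 8.72e-16). Cpr100A, of the same family, had 2.25, 1.56 and 2.55 CPM in T96h, against 12.4, 13.6 and 13.5 CPM in T72h (log2 fold change -2.62, SE 0.146, adjusted p = 8.19e-14). Cpr76Bd had 1.83, 2.12 and 1.49 CPM in T96h, against 9.47, 8.75 and 9.59 CPM in T72h (log2 fold change -2.35, SE 0.155, adjusted p = 2.05e-12). All 3 were lower in each T96h library. Cpr72Ec was the member called higher, with 15.6, 13.5 and 15.2 CPM in T96h, against 2.45, 3.89 and 3.96 CPM in T72h (log2 fold change 2.10, SE 0.129, adjusted p = 5.24e-13), and it was called higher in controls as well (log2 1.51).

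Beside these, CG7203, CG7214 and Acp1, an adult cuticle protein gene, lie close together on chromosome 2L (dm6, chr2L:7740562-7753186), where 3 of 4 tested genes were called lower. CG7203 had 2.95, 2.98 and 3.08 CPM in T96h, against 33.6, 33.5 and 27.6 CPM in T72h (log2 fold change -3.39, SE 0.106, adjusted p = 1.82e-18). No T96h library was above 4 CPM and no T72h library under 27 CPM.

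Among 29 genes of mucins and the peritrophic matrix, the chitin lining of the gut, 3 were called lower, and 18 were lower and 0 higher on the adjusted p, with a median of -0.61. Mur11Da, a mucin-related gene, had 0.187, 0 and 0 CPM in T96h, against 5.56, 5.91 and 6.24 CPM in T72h (log2 fold change -6.39, SE 0.383, adjusted p = 3.24e-13). Muc12Ea, a mucin gene, had 0.422, 0.756 and 0.819 CPM in T96h, against 5.21, 5.67 and 7 CPM in T72h (log2 fold change -3.16, SE 0.219, adjusted p = 5.7e-12). Both were all but absent at 96 h. Muc68D, a mucin gene of the gut, had 378, 388 and 384 CPM in T96h, against 579, 601 and 605 CPM in T72h (log2 fold change -0.63, SE 0.0374, adjusted p = 2.38e-13). Gasp, whose product binds chitin, had 27.7, 28.4 and 25.8 CPM in T96h, against 50.6, 52.2 and 56.8 CPM in T72h (log2 fold change -0.96, SE 0.057, adjusted p = 2.64e-13). The last 2 fell by less, again with no overlap.

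Muscle genes shifted down together without passing the fold threshold. Of 28 sarcomere and flight muscle genes, 27 were lower and 1 higher on the adjusted p, with 0 called and a median of -0.92. The sum was 9151, 9205 and 9089.8 CPM in T96h, against 17000.3, 17086 and 16930.3 CPM in T72h. Mhc, the muscle myosin heavy chain, had 554, 560.4 and 533 CPM in T96h, against 1309, 1270.2 and 1246 CPM in T72h (log2 fold change -1.22, SE 0.0387, adjusted p = 2.72e-18). Tm2, a tropomyosin gene, had 259, 267 and 280.0 CPM in T96h, against 585, 613 and 640.2 CPM in T72h (log2 fold change -1.19, SE 0.0411, adjusted p = 1.04e-17). For both, every T72h library was at more than 2 times the level of any T96h library. Act79B, an actin of tubular muscle, had 179.7, 171 and 172 CPM in T96h, against 512, 505 and 449.6 CPM in T72h, a log2 fold change of -1.49 that passed the threshold with RLE (-1.57), with DESeq2 (-1.57) and without T72h replicate 3 (-1.59) or T96h replicate 1 (-1.51).

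Control flies shared part of this shift. The list median was -0.51 in controls, and the change differed between the diets for 16 genes in the lower direction and 4 in the higher. Mhc changed by log2 -1.19 in controls, with an adjusted p of 0.685 for the difference. TpnC4, a troponin C of the flight muscle, had 156, 156 and 166 CPM in T96h, against 258, 289.8 and 349.7 CPM in T72h (log2 fold change -0.91, SE 0.0701, adjusted p = 4.29e-11), whereas controls averaged 94.1 ± 8.21 CPM in CK96h and 22.2 ± 0.903 CPM in CK72h, the opposite direction. Act88F, the actin of the indirect flight muscle, was the member that was higher, with 250.4, 246 and 243 CPM in T96h, against 239.5, 237 and 216 CPM in T72h (log2 fold change 0.10, SE 0.0382, adjusted p = 0.0369). SERCA, the calcium pump of the sarcoplasmic reticulum, was among the 8 largest falls in CPM, with 908, 904 and 839 CPM in T96h, against 1876, 1829.6 and 1667 CPM in T72h (log2 fold change -1.02, SE 0.0464, adjusted p = 1.81e-15).

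Genes of sugar and fat metabolism were lower by smaller steps. On the adjusted p, 10 of 11 genes of glycogen, trehalose and gluconeogenesis were lower (median -0.43). For glycolysis it was 13 of 16 (median -0.24, and 8 of 16 with library totals), and for fatty acid and triglyceride synthesis 12 of 15 (median -0.28). The 3 lists had 0 members called. In controls their medians were 0.36, 0.35 and 0.24.

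Glys, glycogen synthase, had 162, 162 and 163 CPM in T96h, against 316, 308 and 281 CPM in T72h (log2 fold change -0.89, SE 0.0414, adjusted p = 2.34e-15). Glyp, glycogen phosphorylase, had 372, 369.8 and 377 CPM in T96h, against 567, 553 and 493 CPM in T72h (log2 fold change -0.53, SE 0.0432, adjusted p = 1.32e-10). The enzyme that builds glycogen and the enzyme that breaks it down were thus both lower, with no overlap. G6P, which encodes glucose-6-phosphatase, was the member that was higher, with 5.95, 4.19 and 5.68 CPM in T96h, against 2.9, 2.93 and 2.33 CPM in T72h (log2 fold change 0.95, SE 0.168, adjusted p = 3.2e-05).

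Ald1, the fructose-bisphosphate aldolase of most tissues, had 2191, 2248 and 2179 CPM in T96h, against 3745, 3886 and 3995 CPM in T72h (log2 fold change -0.81, SE 0.0424, adjusted p = 2.32e-14). Gapdh1, glyceraldehyde-3-phosphate dehydrogenase, had 933, 932 and 940.1 CPM in T96h, against 1654, 1600.2 and 1523 CPM in T72h (log2 fold change -0.77, SE 0.0423, adjusted p = 6.17e-14). Hex-A, hexokinase, had 278, 285 and 283 CPM in T96h, against 423, 434 and 454 CPM in T72h (log2 fold change -0.63, SE 0.0394, adjusted p = 7.01e-13). All T96h libraries were below all T72h libraries for these genes of glycolysis. Ald2, a second aldolase gene, was higher, with 62, 66.9 and 59.6 CPM in T96h, against 31.7, 31.7 and 31.9 CPM in T72h (log2 fold change 0.98, SE 0.0507, adjusted p = 1.82e-14).

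ACC, acetyl-CoA carboxylase, the committed step of fatty acid synthesis, had 1007, 999 and 960.0 CPM in T96h, against 1584, 1562 and 1469 CPM in T72h (log2 fold change -0.64, SE 0.0398, adjusted p = 7.29e-13). ATPCL, ATP citrate lyase, which supplies acetyl-CoA, had 883, 898 and 863 CPM in T96h, against 1309.5, 1272 and 1186 CPM in T72h (log2 fold change -0.51, SE 0.041, adjusted p = 8.96e-11). bmm, a lipase that breaks down stored triglyceride, had 185, 176 and 182 CPM in T96h, against 252, 232 and 247 CPM in T72h (log2 fold change -0.43, SE 0.0384, adjusted p = 6.72e-10). None of the 3 overlaps between the times. Of 16 genes of lipid storage and lipolysis, 11 were lower and 1 higher on the adjusted p (median -0.24). Of 10 genes of beta-oxidation, by which fatty acids are burned, 4 were lower and 2 higher (median 0.01).

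The nuclear genes of the respiratory chain fell into 2 sets. Of 86 tested, 62 were lower and 19 higher on the adjusted p, with a median of -0.27 and 0 called. ND-49, a subunit of complex I, had 338, 331 and 327 CPM in T96h, against 551, 564 and 565 CPM in T72h (log2 fold change -0.75, SE 0.0336, adjusted p = 1.22e-15). ATPsynbeta, the catalytic subunit of ATP synthase, had 1504, 1486 and 1514 CPM in T96h, against 2283, 2247 and 2223 CPM in T72h (log2 fold change -0.58, SE 0.043, adjusted p = 1.71e-11). The 19 that were higher had log2 fold changes of 0.68 to 1.08 and were, apart from ND-MWFE, copies named as like the main subunit genes, several of which are transcribed mainly in the testis. Of these, COX4L had 57.1, 53.3 and 53.9 CPM in T96h, against 25.6, 26 and 29.9 CPM in T72h (log2 fold change 1.01, SE 0.0562, adjusted p = 7.22e-14). ND-24L had 18.1, 17.6 and 17.3 CPM in T96h, against 8.41, 8.46 and 8.57 CPM in T72h (log2 fold change 1.06, SE 0.0777, adjusted p = 1.63e-11). The testis list had a median of 0.91 beside them.

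Ribosomal protein genes moved little. Of 87 cytoplasmic ribosomal protein genes, 5 were higher and 27 lower on the adjusted p, with a median of -0.08, against 0.52 in controls. The 27 lower became 50 without T72h replicate 3, 53 with RLE, 55 with DESeq2 and 6 with library totals. Of 22 genes of ribosome biogenesis, whose products assemble ribosomes, 17 were lower and 1 higher, with a median of -0.26. FBgn0000556, with no name in the annotation used here, had one of the 8 largest falls in CPM (12333, 12457 and 12401 CPM in T96h, against 14505, 14326 and 13353 CPM in T72h). eEF2, a translation elongation factor, had another, with 4442, 4528 and 4366 CPM in T96h, against 5436, 5338 and 4774 CPM in T72h (log2 fold change -0.22, SE 0.0557, adjusted p = 0.0016). Their log2 changes were small, -0.18 for FBgn0000556. CG16826 had 2589, 2583 and 2555 CPM in T96h, against 3379, 3354 and 3212 CPM in T72h (log2 fold change -0.36, SE 0.046, adjusted p = 2.63e-07). FBgn0027571 had 2106, 2086 and 1960.3 CPM in T96h, against 3188, 3075 and 2948 CPM in T72h (log2 fold change -0.58, SE 0.0435, adjusted p = 2.32e-11). The functions of both are not given here, and all 4 were lower in each T96h library.

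Of 30 heat shock genes, 10 were higher and 9 lower on the adjusted p, or 5 lower with library totals, shares near the 26.3% and 26.8% of all genes, and 0 were called. Hsp83, the HSP90 chaperone, had 1198, 1187 and 1182 CPM in T96h, against 1848, 1866 and 1788 CPM in T72h (log2 fold change -0.63, SE 0.0399, adjusted p = 1.1e-12). DnaJ-1, a co-chaperone, had 183, 178 and 179 CPM in T96h, against 296, 295 and 296 CPM in T72h (log2 fold change -0.71, SE 0.0347, adjusted p = 5.79e-15). Both were lower in every T96h library. Hsp60C, a chaperonin gene of the testis among other tissues, was higher, with 338, 337 and 341 CPM in T96h, against 166, 165 and 166 CPM in T72h (log2 fold change 1.03, SE 0.0339, adjusted p = 4.2e-18), and was lower in CK96h than in CK72h (log2 -1.48). Hsp68, a stress-induced HSP70, had 23.7, 24.6 and 25.4 CPM in T96h, against 16.9, 18 and 16.6 CPM in T72h (log2 fold change 0.51, SE 0.0701, adjusted p = 8.33e-07).

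In the gut, digestive proteases were mostly lower. Of 30 trypsin and Jonah protease genes, 21 were lower and 3 higher on the adjusted p, with a median of -0.30, against 0.40 in controls. Jon74E, a protease of the midgut, was the member called lower, with 22.7, 18.9 and 22.6 CPM in T96h, against 125, 125 and 123 CPM in T72h (log2 fold change -2.54, SE 0.052, adjusted p = 4.68e-22). betaTry, a trypsin gene, had 1169.8, 1182 and 1219 CPM in T96h, against 1848, 1754 and 1628 CPM in T72h (log2 fold change -0.55, SE 0.0569, adjusted p = 8.47e-09). Jon65Aiii had 610.1, 606 and 608 CPM in T96h, against 1058, 1023 and 889.6 CPM in T72h (log2 fold change -0.70, SE 0.061, adjusted p = 3.65e-10). Each of these separated the groups, with reads that may be shared among near-identical copies in this family.

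Maltases and amylases, which cut disaccharides and starch and which the study singles out, moved little between the times. Of 14 tested, 2 were higher and 8 lower on the adjusted p (3 lower with library totals), 0 were called, and the median was -0.11, or -0.21 without T72h replicate 3. Amyrel, an amylase-related gene, had 10.2, 9.48 and 10.02 CPM in T96h, against 4.86, 5.67 and 4.26 CPM in T72h (log2 fold change 1.001, SE 0.143, adjusted p = 1.66e-06). Mal-B1 had 133, 129.8 and 139 CPM in T96h, against 119.5, 116 and 105 CPM in T72h (log2 fold change 0.24, SE 0.0477, adjusted p = 0.000133). Amyrel and Mal-B1 were the 2 that were higher. Mal-A5 had 87.6, 81.4 and 86.8 CPM in T96h, against 148, 139.6 and 128 CPM in T72h (log2 fold change -0.70, SE 0.0471, adjusted p = 3.26e-12). Mal-A4 had 616, 603 and 607 CPM in T96h, against 696, 660.1 and 623 CPM in T72h (log2 fold change -0.12, SE 0.0468, adjusted p = 0.039), a difference that turned to 0.00514 with library totals. Both T96h and T72h were far above the control level of Mal-A4, which was 18.6 ± 1.94 CPM in CK96h and 10.9 ± 1.11 CPM in CK72h.

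The 6 lysosomal alpha-mannosidase genes, whose enzymes trim glycoprotein sugars, had a median of -0.50, with 4 lower on the adjusted p. LManVI had 282, 275 and 267 CPM in T96h, against 463, 467 and 438 CPM in T72h (log2 fold change -0.73, SE 0.0469, adjusted p = 1.23e-12). Its T96h libraries were all below its T72h libraries, while controls had 49.4 ± 2.33 CPM in CK96h and 11.6 ± 1.79 CPM in CK72h.

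Photoreceptor genes rose as a group. Of 28 phototransduction genes, 2 were called higher (ninaB and Rh4) and 0 lower, and 24 were higher and 2 lower on the adjusted p, or 4 lower with RLE or DESeq2. The median log2 fold change was 1.14, against -0.30 in controls. The summed level was 4911, 4933 and 4960.4 CPM in T96h, against 2198, 2213 and 2255 CPM in T72h. In controls it was 5488 ± 77.8 CPM in CK96h and 6767 ± 30.8 CPM in CK72h, so that T72h was the low one of the 4 groups. The change differed between the diets for 23 of 28 genes in the higher direction.

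The opsins, the light receptors of the eye, all rose. ninaE, the main opsin of the outer photoreceptors, had 1645, 1684 and 1695 CPM in T96h, against 660.0, 661 and 713 CPM in T72h (log2 fold change 1.31, SE 0.0431, adjusted p = 4.59e-18). Rh4, an ultraviolet opsin of the inner photoreceptors, had 117, 118 and 116 CPM in T96h, against 42.7, 39.5 and 38 CPM in T72h (log2 fold change 1.54, SE 0.0462, adjusted p = 9.52e-19), a call that ended with RLE (1.47), with DESeq2 (1.46) and without T72h replicate 3 (1.47). Rh6, an opsin of the inner photoreceptors, had 20.6, 22.7 and 22 CPM in T96h, against 9.27, 7.26 and 7.51 CPM in T72h (log2 fold change 1.44, SE 0.0922, adjusted p = 1.16e-12), and passed the fold threshold with library totals (1.57) and without T72h replicate 1 (1.56). Rh3, Rh5 and Rh2, the last of them the opsin of the ocelli, changed by log2 1.08, 0.94 and 0.91. Every one of the 6 opsins was higher in all T96h libraries than in any T72h library.

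Channels and arrestins rose by similar amounts. trpl, a cation channel opened by light, had 208, 207 and 204 CPM in T96h, against 79.5, 79 and 75.1 CPM in T72h (log2 fold change 1.41, SE 0.0364, adjusted p = 5.96e-20). trp, the other channel, had 168, 177 and 175 CPM in T96h, against 79.6, 79.5 and 74.9 CPM in T72h (log2 fold change 1.15, SE 0.0377, adjusted p = 4.13e-18). Arr2, the main arrestin, which ends the light response, had 930.1, 906 and 929 CPM in T96h, against 349.7, 356 and 347 CPM in T72h (log2 fold change 1.39, SE 0.04, adjusted p = 4.44e-19). These genes had no overlap between the groups, nor had Arr1, with 636, 627 and 632 CPM in T96h, against 241, 240.5 and 223 CPM in T72h (log2 fold change 1.43, SE 0.0409, adjusted p = 4.44e-19). With library totals trpl (1.53), Arr2 (1.52) and Arr1 (1.55) passed the fold threshold.

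Other genes of the pathway moved less. norpA, the phospholipase C of the cascade, had 111, 109 and 108 CPM in T96h, against 78.6, 83.1 and 97.8 CPM in T72h (log2 fold change 0.34, SE 0.0541, adjusted p = 8.78e-06). Galphaq, the G protein subunit that activates it, had 20.6, 21.9 and 20.9 CPM in T96h, against 20.8, 22 and 28.7 CPM in T72h (log2 fold change -0.17, SE 0.0841, adjusted p = 0.0884). norpA separated the groups and Galphaq did not. rdgA, a diacylglycerol kinase, was lower, with 34.8, 34.7 and 34.9 CPM in T96h, against 50.0, 56.6 and 60.4 CPM in T72h (log2 fold change -0.68, SE 0.0675, adjusted p = 4.5e-09).

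Enzymes and transporters of vision outside the signalling chain were among the 9 called rises of at least 4 CPM. Pdh, a retinol dehydrogenase of the eye, had 39.3, 42 and 42.7 CPM in T96h, against 12.9, 12.1 and 11.2 CPM in T72h (log2 fold change 1.77, SE 0.0586, adjusted p = 4.59e-18), and controls rose by log2 1.71 (adjusted p of the difference 0.42). CarT, a carcinine transporter of photoreceptors, had 8.66, 8.12 and 8.14 CPM in T96h, against 3.26, 2.74 and 2.59 CPM in T72h (log2 fold change 1.54, SE 0.129, adjusted p = 1.92e-10), a call that ended with RLE (1.46), with DESeq2 (1.46) and without T72h replicate 3 (1.43). ninaB, which cleaves carotenoids to retinal, had 7.35, 7.31 and 8 CPM in T96h, against 2.85, 2.02 and 2.38 CPM in T72h (log2 fold change 1.64, SE 0.136, adjusted p = 1.49e-10). All 3 had T96h libraries above their T72h libraries, which the rule for naming them required.

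**Figure D4:**
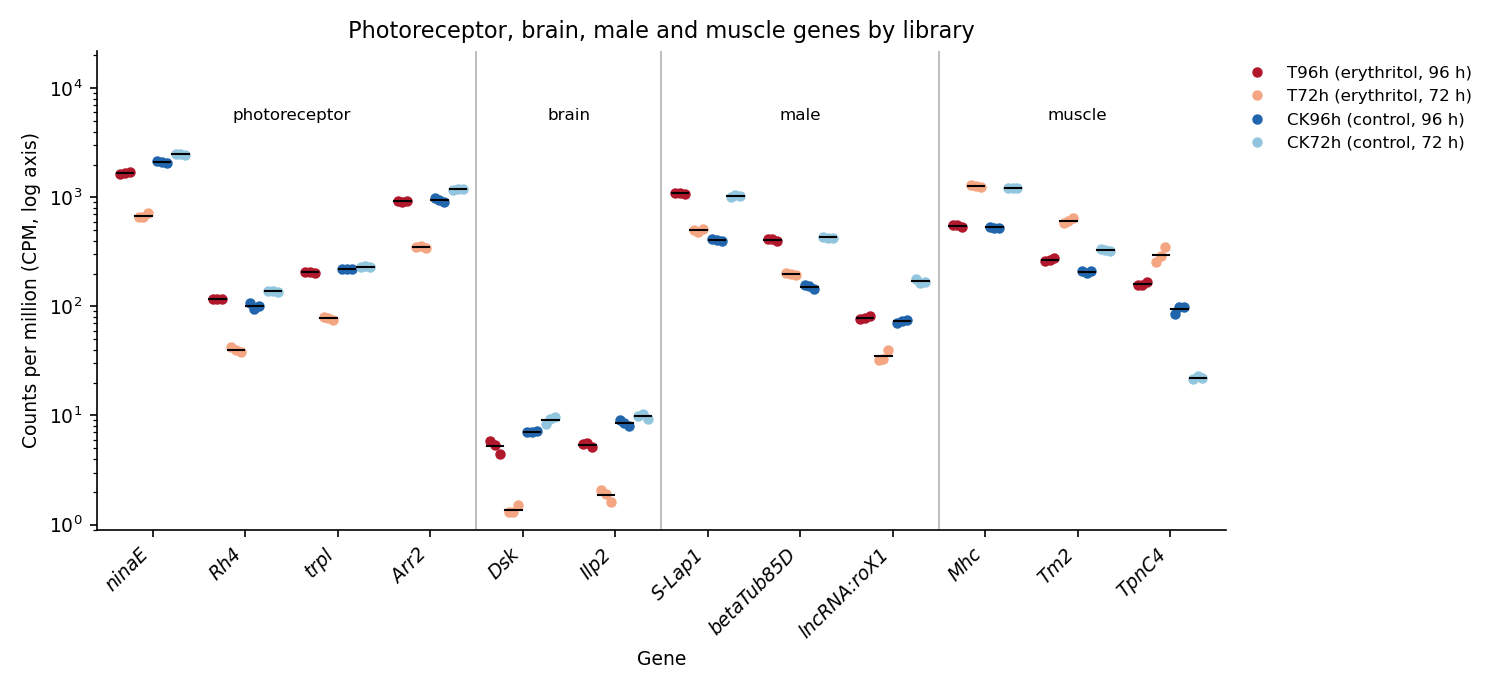
CPM of photoreceptor, brain, male and muscle genes (log axis) in each library of T96h, T72h, CK96h and CK72h, with bars at group means. The photoreceptor genes average lowest in T72h, the male genes are higher in T96h than in T72h and lower in CK96h than in CK72h, and Mhc is lower at 96 h on both diets.

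Peptide genes of the nervous system moved in part with the eye genes. Of 33 neuropeptide genes, 2 were called higher (Dsk and Eh) and 1 lower, while 14 were higher and 4 lower on the adjusted p, and the median was 0.21. The 4 lower became 1 with library totals, 2 without T72h replicate 1 and 1 without T96h replicate 2. Dsk, the precursor of the satiety peptides called sulfakinins, had 5.85, 5.34 and 4.43 CPM in T96h, against 1.3, 1.3 and 1.52 CPM in T72h (log2 fold change 1.92, SE 0.167, adjusted p = 4.09e-10). Dh44, a diuretic hormone, had 6.6, 7.16 and 7.71 CPM in T96h, against 2.8, 3.94 and 3.6 CPM in T72h (log2 fold change 1.05, SE 0.137, adjusted p = 4.47e-07). sNPF, a peptide that promotes feeding, had 15.2, 14.7 and 15 CPM in T96h, against 8.61, 9.32 and 12.1 CPM in T72h (log2 fold change 0.58, SE 0.095, adjusted p = 1.18e-05). All 3 were higher in every T96h library. Eh, eclosion hormone, rested on 32 counts in T96h and 3 in T72h, a ratio of 10.4 (95% counting interval 3.26 to 53.2). Nplp3, a neuropeptide-like precursor, was the member called lower, with 9.84, 11 and 10.6 CPM in T96h, against 35.3, 31.2 and 32.9 CPM in T72h (log2 fold change -1.66, SE 0.064, adjusted p = 8.14e-17).

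Hormones of sugar control did not move as one. Of 16 insulin-like peptides, Akh and related genes, 4 were higher and 6 lower on the adjusted p, beside 26.3% and 26.8% of all genes. Ilp2, made by the insulin-producing cells of the brain, had 5.43, 5.6 and 5.11 CPM in T96h, against 2.05, 1.92 and 1.62 CPM in T72h (log2 fold change 1.52, SE 0.147, adjusted p = 2.52e-09), a call that ended with RLE (1.44), with DESeq2 (1.44) and without T72h replicate 3 (1.39) or T96h replicate 2 (1.49). Ilp3, of the same cells, had 1.87, 2.02 and 1.83 CPM in T96h, against 0.551, 0.577 and 1.12 CPM in T72h (log2 fold change 1.35, SE 0.275, adjusted p = 0.000191), and it was called without T72h replicate 3 (1.70). Both were higher in every T96h library.

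Ilp5, also of these cells, had 0.422, 0.151 and 0.53 CPM in T96h, against 0.3, 0.192 and 0.304 CPM in T72h (log2 fold change 0.48, SE 0.494, adjusted p = 0.438), with overlap. ImpL2, a secreted protein that binds and opposes insulin, had 82.4, 87.6 and 89.3 CPM in T96h, against 158, 165 and 160.0 CPM in T72h (log2 fold change -0.90, SE 0.0377, adjusted p = 4.01e-16). Akh, the glucagon-like hormone, had 20.1, 19.1 and 24.7 CPM in T96h, against 19.2, 21.6 and 22 CPM in T72h (log2 fold change 0.03, SE 0.085, adjusted p = 0.825). ImpL2 was lower in each T96h library, while the groups overlap for Akh. General neuronal markers did not follow the eye: of 16, 6 were higher and 6 lower on the adjusted p, or 3 lower with library totals, with a median of -0.06.

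Detoxification genes are given by family. Of 35 glutathione S-transferase genes, whose enzymes conjugate foreign compounds, 19 were higher and 5 lower on the adjusted p, with a median of 0.20. The 5 lower became 9 without T72h replicate 3, 9 with RLE, 9 with DESeq2 and 3 with library totals. GstD2 had 35.7, 38.8 and 35 CPM in T96h, against 14.4, 15.5 and 15.9 CPM in T72h (log2 fold change 1.26, SE 0.0733, adjusted p = 2e-13). GstD5 had 59, 57.8 and 55.5 CPM in T96h, against 32.3, 34.9 and 36.6 CPM in T72h (log2 fold change 0.73, SE 0.0595, adjusted p = 1.15e-10). GstD1, which also breaks down DDT, had 1415, 1459.8 and 1458 CPM in T96h, against 1113, 1102 and 1092 CPM in T72h (log2 fold change 0.39, SE 0.0462, adjusted p = 9.18e-08). The 3 genes were higher in every T96h library.

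Of 75 cytochrome P450 genes, 18 were higher and 25 lower on the adjusted p, shares near the 26.3% and 26.8% of all genes. The 18 higher became 6 with DESeq2, 11 with RLE and 11 without T72h replicate 3, and the 25 lower became 13 with library totals. Cyp6g1, known for insecticide resistance, had the largest fall in CPM among genes without overlap, with 7007, 7044 and 6960.2 CPM in T96h, against 9441, 9309 and 8606 CPM in T72h (log2 fold change -0.38, SE 0.0481, adjusted p = 2.59e-07). Cyp6a2, also linked to resistance, was higher, with 284, 285 and 285 CPM in T96h, against 199, 195 and 188 CPM in T72h (log2 fold change 0.55, SE 0.0342, adjusted p = 6.78e-13).

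Single genes of other kinds completed the rises. Alp8, an alkaline phosphatase gene, had 50.4, 50.2 and 51.5 CPM in T96h, against 11, 10.6 and 9.44 CPM in T72h (log2 fold change 2.29, SE 0.0712, adjusted p = 1.82e-18). This was the largest log2 rise among called genes of at least 4 CPM, and controls had 0.0647 ± 0.0318 CPM in CK96h and 0.261 ± 0.0941 CPM in CK72h. TotA, a stress peptide of the Turandot family, had 8.81, 8.72 and 9.78 CPM in T96h, against 2.7, 2.55 and 2.54 CPM in T72h (log2 fold change 1.81, SE 0.111, adjusted p = 4.98e-13), and controls rose by log2 1.55 (adjusted p of the difference 0.0778). CG9733, with no function given here, had 16.5, 16 and 14.2 CPM in T96h, against 4.16, 5 and 4.77 CPM in T72h (log2 fold change 1.75, SE 0.111, adjusted p = 1.11e-12). CG7567, likewise, had 23.7, 19.3 and 22.9 CPM in T96h, against 6.51, 7.4 and 6.55 CPM in T72h (log2 fold change 1.69, SE 0.0987, adjusted p = 2.08e-13). For all 4 the T96h libraries lay above the T72h libraries, which the rule for naming them required.

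The RNA of clock genes cycles daily, and the sources used here do not give the hour of collection. tim, a core clock gene, had 191, 191 and 186 CPM in T96h, against 440.4, 449 and 418 CPM in T72h (log2 fold change -1.20, SE 0.0374, adjusted p = 1.86e-18), and in controls it had 62.1 ± 2.63 CPM in CK96h and 208 ± 2.56 CPM in CK72h. It was lower at 96 h on both diets. per, its partner, had 33.8, 28.9 and 27.6 CPM in T96h, against 29.8, 26.8 and 25.8 CPM in T72h (log2 fold change 0.13, SE 0.0698, adjusted p = 0.11). cry, the blue-light receptor of the clock, was higher, with 366, 356 and 347 CPM in T96h, against 253, 260.2 and 233 CPM in T72h (log2 fold change 0.52, SE 0.039, adjusted p = 2.59e-11), and was higher in CK96h too (log2 0.44, adjusted p = 5.5e-10). Of 12 clock genes, 2 were higher and 6 lower on the adjusted p. The part of collection hour in these values was not tested.

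Some genes that set erythritol-fed flies apart from controls differed little between the 2 times. CG34040, with no function given here, had 197, 195 and 193 CPM in T96h, against 194, 201 and 197 CPM in T72h (log2 fold change -0.02, SE 0.0345, adjusted p = 0.696), and controls had 0.887 ± 0.119 CPM in CK96h and 2.12 ± 0.245 CPM in CK72h. Its groups overlap. tobi, a glucosidase gene regulated by diet, had 1344, 1330.4 and 1306 CPM in T96h, against 1457, 1416 and 1322 CPM in T72h (log2 fold change -0.08, SE 0.0403, adjusted p = 0.119), and controls had 88.2 ± 2.47 CPM in CK96h and 291 ± 3.61 CPM in CK72h. For CG34040 and tobi the difference did not pass the test. Thor, a translation inhibitor that rises in starved flies, was lower, with 618, 606 and 626 CPM in T96h, against 814, 809 and 837 CPM in T72h (log2 fold change -0.41, SE 0.0375, adjusted p = 9.14e-10), and controls had 274 ± 11.9 CPM in CK96h and 163 ± 0.677 CPM in CK72h.

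List medians on the 2 diets often lay on opposite sides of 0. The chorion, yolk, antimicrobial peptide, Bomanin, glycolysis, glycogen, respiratory chain, lipid synthesis and digestive protease lists had medians below 0 in erythritol-fed flies and above 0 in controls. The photoreceptor, testis, Y chromosome and neuropeptide lists had medians above 0 in erythritol-fed flies and below 0 in controls. The accessory gland list was below 0 in controls, and its median with erythritol is not read as a direction. The muscle list had medians below 0 on both diets, and the glutathione S-transferase list had medians above 0 on both (0.199 with erythritol and 0.155 in controls). The list of mucins and the peritrophic matrix had -0.613 with erythritol and -0.0541 in controls, the second too near 0 to be read as a direction. Over all genes tested the median was -0.01 with erythritol and 0.12 in controls. The control medians were not recomputed with other scalings. The TMM factors were 1.09 to 1.12 in CK72h and 0.947 to 0.992 in CK96h, so small control medians depend on the scaling.

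**Figure D5:**
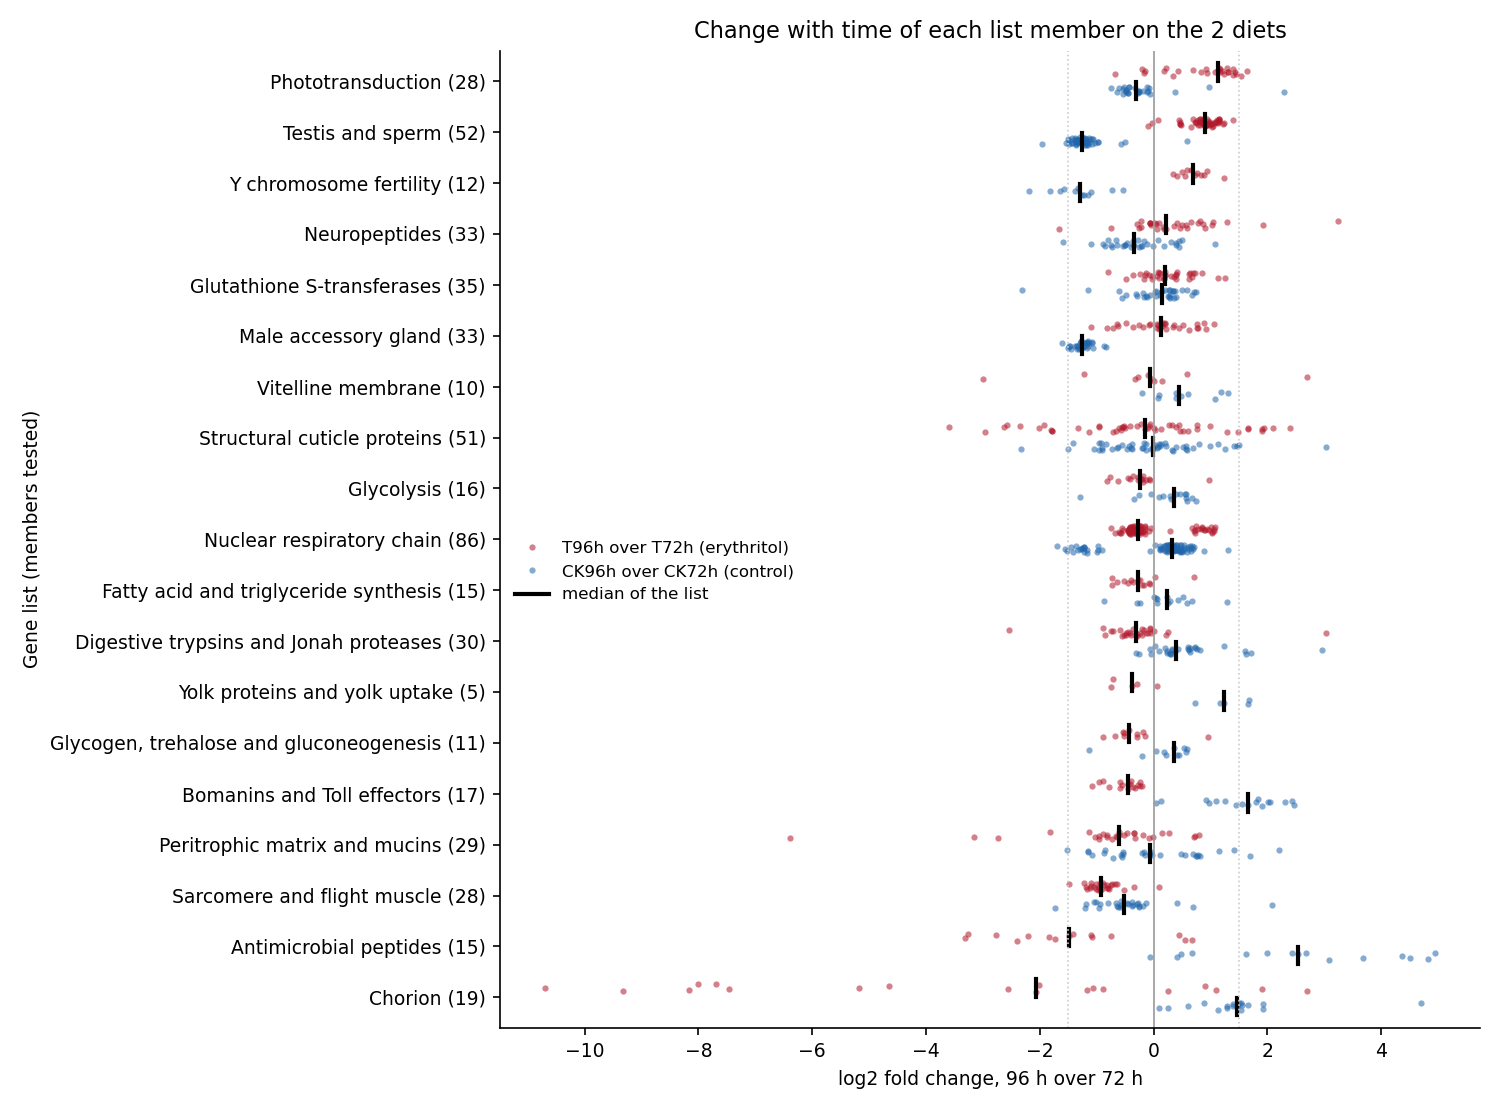
Log2 fold change of 96 h over 72 h for each tested member of 19 gene lists (points), in erythritol-fed flies (T96h over T72h, upper row) and in control flies (CK96h over CK72h, lower row), with black bars at the list medians and dotted lines at 1.5 and -1.5. The chorion and antimicrobial peptide lists have medians of -2.07 and -1.48 with erythritol and 1.46 and 2.54 in controls, and points of genes with 0 to 3 counts in a group are fitted values.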

How the data were processed

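The authors trimmed reads and aligned them to FlyBase release 6 with HISAT2 (per the labels, base calling used CASAVA 1.8). The deposited values are raw counts per gene and library, unscaled. Neither the counting tool nor its strand setting is given in the sources used here. Overlapping, antisense and near-identical genes are therefore uncertain. Names and positions came from the Ensembl annotation of dm6.

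Counts were tested with edgeR 4.0.16 in R 4.3.3, after its filter on low counts and TMM scaling, in 1 quasi-likelihood fit of the 12 libraries. The control change and the difference between changes came from the same fit. SE is the absolute log2 fold change over the square root of F. Principal components used a prior count of 2. Scripts were tested on simulated data.

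Genes named were the 15 largest rises and falls among called genes of at least 4 CPM without overlap (9 rises and 31 falls qualified), the 8 largest in CPM, and up to 6 members of each list by adjusted p. Those named for the largest changes in log2 or CPM had no overlap by this rule. Other list members, Hsp and germline genes, tobi, Thor and clock genes among them, were chosen after their values were seen. The members and lists were chosen with earlier results of these data known. List members were found by symbol, and 306 FlyBase genes of the table had no symbol. Members not found, which may be among these, included Drs, BaraA2, InR, FASN1, FASN3, Cyt-c-p, wupA and vas. Groups with 0 counts took a floor of 3 counts. Intervals for 1 to 3 counts are exact at 95%, and both cover counting error only. A chi-square per degree of freedom of 2.9 or more in each replicate pair of T96h and T72h showed no copied library. Alternatives were other scalings, no filter, DESeq2 1.42.0, the 6 erythritol libraries alone, a replicate block and each library left out.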

Additional observations from a re-analysis of the deposited data

Results flagged for a closer look

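Of the genes with the largest rises and falls in T96h against T72h, 5 were called in opposite directions on the 2 diets and differed in the test of the difference between the changes. Alp8 rose in erythritol-fed flies (log2 2.29) and fell in controls (log2 -1.93, at 0.0647 ± 0.0318 CPM in CK96h and 0.261 ± 0.0941 CPM in CK72h), a difference of 4.22 on the log2 scale (SE 0.586, adjusted p = 5.12e-07). At these control levels, under 1 CPM at both times, the control change of Alp8 rests on few counts. The other 4 fell with erythritol and rose in controls. Among chorion genes the difference was -9.70 for Cp36 (SE 0.197, adjusted p = 1.14e-22) and -9.61 for Cp18 (SE 0.11, adjusted p = 1.53e-27). Among antimicrobial peptide genes it was -6.005 for Dro (SE 0.11, adjusted p = 2.2e-23) and -6.91 for AttC (SE 0.109, adjusted p = 1.25e-24). In each of these genes all 3 T96h libraries lay on one side of all 3 T72h libraries, which the rule for naming them required.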

How the results depend on the processing

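With only the 6 erythritol libraries in the fit, 51 genes were called higher in place of 86, with fewer samples behind the spread. With library totals as the only scaling, 1848 genes in place of 3526 were lower on the adjusted p, and 3635 in place of 6303 had a change lower in erythritol-fed than in control flies. With each of the 12 libraries left out in turn (the 6 control libraries were added after the data were seen), 92 to 121 genes were called higher and 98 to 111 lower, 3065 to 3493 were higher and 3149 to 4141 lower on the adjusted p alone, and the change was higher with erythritol for 3999 to 4324 genes and lower for 5928 to 6236. The 121 came without T72h replicate 3.

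The replicate numbers pair no samples by the labels, and same-numbered T96h and T72h libraries had correlations of deviations from their group means of 0.0762, 0.0226 and 0.0965. With a replicate block, 86 genes were called higher and 98 lower, which were the same 184 genes.

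Of 207 named genes, 195 kept their side of the threshold in the 20 alternatives without a counted reversal. A change of sign was counted as a reversal only where the gene passed the adjusted p in the main fit or in the alternative. By this rule 1 value reversed, that of Mal-A4 with library totals (0.00514, adjusted p = 0.948). Library totals also put the medians of some lists above 0: vitelline membrane 0.0142, circadian clock 0.0159, cytochrome P450 0.0745, ribosomal proteins 0.0422, dosage compensation 0.0701, insulin-like peptides 0.0598 (0.0272 with no filter), maltases 0.0114, maternal and germline 0.0633, neuronal markers 0.0647 and peptidoglycan recognition 0.0694. They also brought the medians of glycolysis to -0.122, the respiratory chain to -0.152, lipid synthesis to -0.158 and digestive proteases to -0.182. The cuticle median was 0 with no filter. These causes were not tested. Depth limits the genes under about 1 CPM, and 77 of the 86 called rises averaged under 4 CPM.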

Other observations

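Called genes that lay together and belong to no list included CG31928, CG31926 and CG31661 on chromosome 2L (dm6, chr2L:1492295-1498583), where 3 of 3 tested genes were called lower in T96h. CG31926, chosen after its values were seen, had 0.0468, 0 and 0.0963 CPM in T96h, against 4.51, 5.05 and 6.04 CPM in T72h, or 3 counts against 314, a ratio of 107 (95% counting interval 36.3 to 523). Its T96h libraries were all but empty, while controls averaged 17.6 ± 0.313 CPM in CK96h and 11.2 ± 0.489 CPM in CK72h. On the Y chromosome as a whole, 11 of 19 genes tested were higher on the adjusted p in T96h, with a median log2 fold change of 0.77.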
